A study of Mus musculus with 48 samples.

Results

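The genes described here are 32 members of the integrated stress response and of the mitochondrial stress response, taken as a listed set and looked up by symbol in the gene table. All 32 were present among its 30743 rows, and 31 passed the filter on low counts in both sets of libraries. The member that did not pass was Fgf21. The integrated stress response starts with kinases that phosphorylate the translation factor eIF2alpha, which lowers general protein synthesis while allowing translation of the transcription factor ATF4. ATF4 and its partners turn on genes for amino acid synthesis, amino acid transport and mitochondrial one-carbon metabolism, and in heart muscle the same genes respond when mitochondrial translation or respiration is impaired. The mitochondrial unfolded protein response adds chaperones and proteases of the mitochondrial matrix. ATF4 is controlled in large part by translation, so messenger RNA is an incomplete measure of its activity.

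RNA of cardiomyocytes from wild-type mice and from mitochondrial-nuclear exchange (MNX) mice was sequenced in 48 libraries. In MNX mice the nuclear genome of C57BL/6J (C57) or C3H/HeN (C3H) is combined with the mitochondrial genome of the other strain. C57n:C3Hmt stands for a C57 nucleus with C3H mitochondria. C57n:C57mt and C3Hn:C3Hmt stand for the unexchanged strains, whose libraries were labelled wild type (WT). Cells were taken on day 3 after sham surgery or ACF (the abbreviation commonly stands for aortocaval fistula, which loads the heart with volume), by collagenase perfusion after the right ventricle and atria had been removed. In 24 libraries, set B here, the titles named no surgery and the treatment label was sham, with 6 libraries each of C57n:C57mt, C57n:C3Hmt, C3Hn:C57mt and C3Hn:C3Hmt. In the other 24, set A, the titles named the surgery, with 3 sham and 3 ACF libraries under each of the titles C57_wt, C3H_wt, C57_MNX and C3H_MNX. The genotype labels of the exchanged set A libraries did not match their nuclear profile. A score over 36 strain-specific genes, set to 0 at the C57 nucleus and 1 at the C3H nucleus of set B, was 0.726 to 0.835 in the libraries titled C3H_MNX, which were labelled C57n:C3Hmt, and -0.15 to -0.0926 in those titled C57_MNX, which were labelled C3Hn:C57mt. The unexchanged set A libraries scored 0.787 to 0.86 under the title C3H_wt and -0.14 to -0.0355 under C57_wt. Set A groups are therefore called by their titles, ACF was compared within a title, and nothing is said of the mitochondria that the exchanged set A libraries carried. The effect of mitochondrial and nuclear background was taken from set B.

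The 7 members whose promoter held the letters TGATGNAA are shown as 30 bases around that motif, because it is the core of the C/EBP-ATF response element that ATF4 dimers bind. Promoters were the RefSeq windows of GRCm38.p6 from 250 bases before to 50 after a gene's start, searched on both strands, and each stretch is written on the gene's strand with the motif or its reverse complement in capitals.
Asns: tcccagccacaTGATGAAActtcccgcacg
Chac1: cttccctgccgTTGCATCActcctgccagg
Nupr1: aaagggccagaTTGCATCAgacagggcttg
Trib3: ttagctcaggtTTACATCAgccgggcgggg
Slc7a11: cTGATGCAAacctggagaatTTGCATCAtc
Pck2: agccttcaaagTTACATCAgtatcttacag
Fgf21: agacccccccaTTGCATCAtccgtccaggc
The Asns stretch is chr6:7693214-7693243 (minus strand) and its motif begins 23 bases before the start. The Chac1 stretch is chr2:119351038-119351067 (plus strand), with the motif 193 bases before the start. The Nupr1 stretch is chr7:126625562-126625591 (minus strand), with the motif 110 bases before the start. The Trib3 stretch, chr2:152344028-152344057 (minus strand), lies just after the start. The Slc7a11 stretch, chr3:50443651-50443680 (minus strand), held 2 copies in opposite orientation. The Pck2 stretch is chr14:55540152-55540181 (plus strand) and the Fgf21 stretch chr7:45615611-45615640 (minus strand). Of the 29 members matched, the motif was held by 7 (24.1%), against 1219 of the 27025 genes listed (4.51%). Several genes have more than 1 promoter window, and by window the counts were 7 of 34 (20.6%) and 1304 of 32851 (3.97%). A match is a stretch of letters, not a measured binding site. Of the 13 members that edgeR called with all libraries in at least 1 comparison below, Asns, Chac1 and Nupr1 held the motif. The windows of Mthfd2, Phgdh, Psat1, Shmt2, Atf4, Atf5, Cebpg, Ddit3, Gdf15 and Lonp1 did not hold these letters.

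Libraries held 15.89 to 20.77 M counts in set A and 15.97 to 26.09 M in set B. Of 24 set A libraries, library 489 (C57_wt ACF) stood furthest apart. It had a summed level of erythrocyte markers of 69540 CPM (counts scaled to a common library size), against at most 290.6 in the others. Its cardiomyocyte marker sum was 7767, against at least 30220. That 30220 was library 6756 (C3H_MNX ACF), which also differed from its group. Library 6756 had a fibroblast marker sum of 992.5 CPM, against 250.2 and 308.5 in the other C3H_MNX ACF libraries. Its macrophage marker sum was 147 CPM, against 43.85 and 38.86. In set B the cardiomyocyte marker sum was 53660 to 70840 CPM in every library. Of the 32 members, 15 lay above and 7 below all the other set A libraries in library 489, so ACF results are given with and without it. Levels below are log2 CPM within a set and are not comparable between genes, since they are not per length, or between sets. Fold changes are from edgeR's quasi-likelihood fit, are on the log2 scale and are given with their standard error (SE). For genes with few counts they exceed the difference in log2 CPM, which is drawn together by a prior count of 2. P-values were adjusted over all genes tested, and a gene was called at an adjusted p under 0.05. The 95% intervals use a normal approximation from the SE and are somewhat narrower than the F test implies. Counts of intervals within a bound may therefore be too high. In such bulk RNA, fewer cells of a type and less RNA per cell cannot be told apart.

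The clearest differences among the members lay between nuclear backgrounds that carried C57 mitochondria (C3Hn:C57mt against C57n:C57mt). Of 9 enzymes of serine, asparagine and mitochondrial one-carbon metabolism, 4 were lower with the C3H nucleus (Phgdh, Psat1, Asns and Mthfd2, by 0.79 to 1.41 on the log2 scale), 1 was higher (Shmt2, by 0.49) and the other 4 were not called. Nupr1 and Cebpg fell, and Ddit3, Chac1 and Lonp1 rose. In all, 10 of 31 members were called, 4 higher and 6 lower. That share, 32.3%, was close to the share of all genes: 31.9% of 13395 tested genes were called, 15.9% higher and 16% lower. The median difference was 0.125 over members and 0.007 over all genes. By role, 5 of 9 enzymes were called, 3 of 6 transcription factors, 1 of 3 feedback and stress effectors and 1 of 5 mitochondrial chaperones and proteases. None of the 3 kinase and phosphatase genes, 3 amino acid transporters and 2 tested secreted factors was called.

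**Figure D1:**
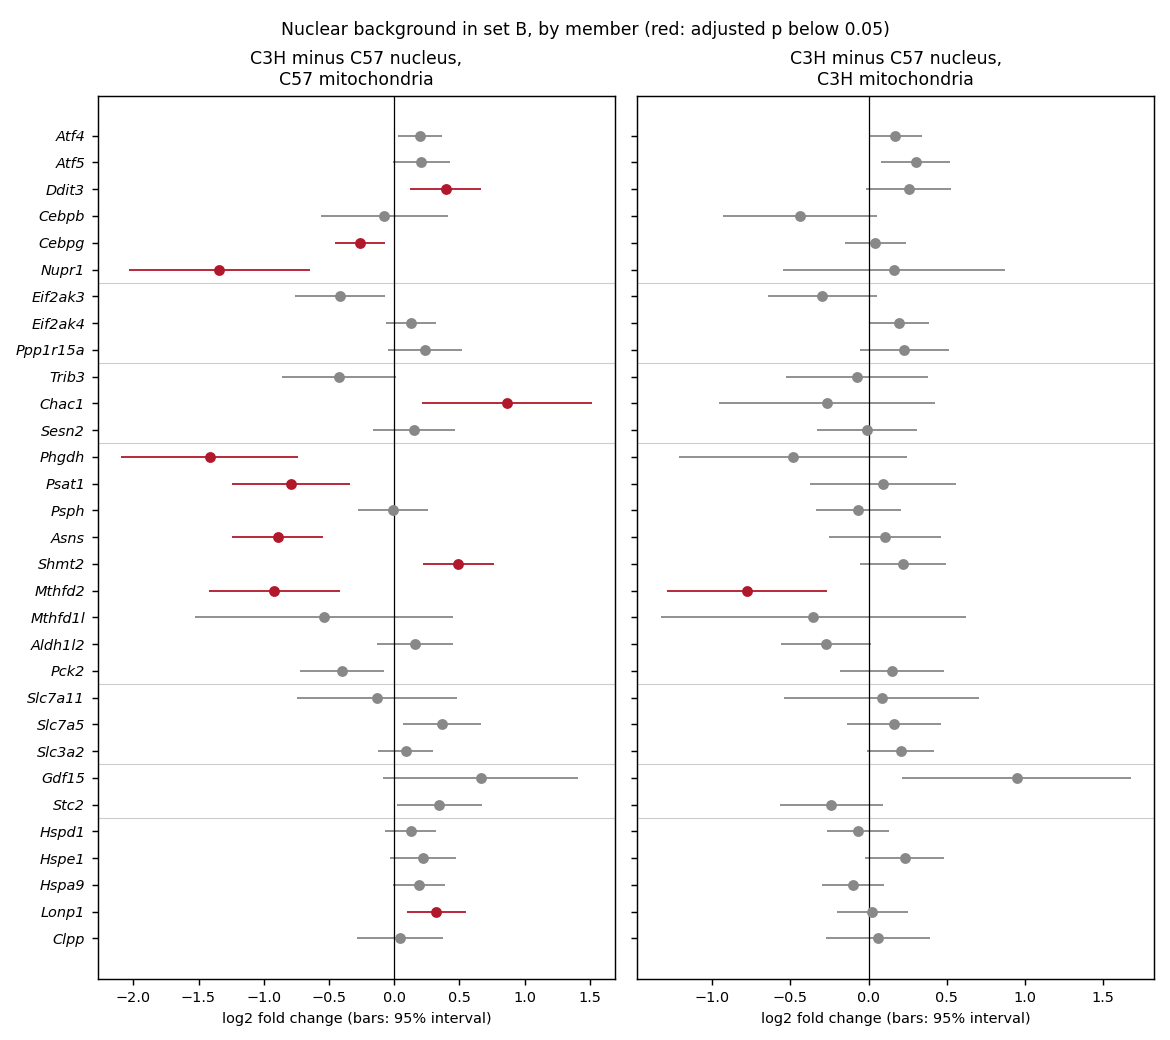
Log2 fold change (C3H minus C57 nucleus) of the 31 tested members in set B, in rows ordered by role, with C57 mitochondria on the left and C3H mitochondria on the right; bars are 95% intervals and red marks an adjusted p below 0.05. With C57 mitochondria 10 members are red, and with C3H mitochondria Mthfd2 alone.

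Phgdh, the first enzyme of serine synthesis from glycolysis, had a log2 CPM of -1.59, -0.30 and 0.60 (lowest, median, highest) in C57n:C57mt, and of -1.97, -1.34 and -0.88 in C3Hn:C57mt. Its fold change of -1.41 (SE 0.346, adjusted p = 0.00263) rested on 4 to 37 counts per library. The groups overlapped only through library 3, the lowest of C57n:C57mt. Psat1, the next enzyme of serine synthesis, had 0.18, 0.61 and 1.37 in C57n:C57mt and -0.48, 0.02 and 0.31 in C3Hn:C57mt, a fold change of -0.79 (SE 0.232, adjusted p = 0.0105). The groups overlapped over a narrow range. Psph, which releases serine in the last step, had a fold change of -0.01 (SE 0.136, adjusted p = 0.963).

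Asns, the enzyme that makes asparagine, had the smallest p of the members. It had 0.27, 0.73 and 1.21 in C57n:C57mt and -0.38, -0.14 and 0.28 in C3Hn:C57mt, a fold change of -0.89 (SE 0.179, adjusted p = 0.000373). A single C3Hn:C57mt library, number 16 at 0.28, reached the lowest C57n:C57mt library. Mthfd2, the mitochondrial folate dehydrogenase and cyclohydrolase, had -0.05, 0.68 and 1.37 in C57n:C57mt and -0.48, -0.09 and 0.36 in C3Hn:C57mt, a fold change of -0.92 (SE 0.255, adjusted p = 0.00726). Here libraries 3 and 4 of C57n:C57mt lay within the C3Hn:C57mt range and the other 4 above it. Shmt2, which moves a carbon from serine to folate in mitochondria, went the other way, on 486 to 1520 counts per library. It had 4.57, 4.92 and 5.34 in C57n:C57mt and 5.21, 5.46 and 5.72 in C3Hn:C57mt, a fold change of 0.49 (SE 0.139, adjusted p = 0.0083). Library 2 of C57n:C57mt alone lay above the lowest C3Hn:C57mt library.

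**Figure D2:**
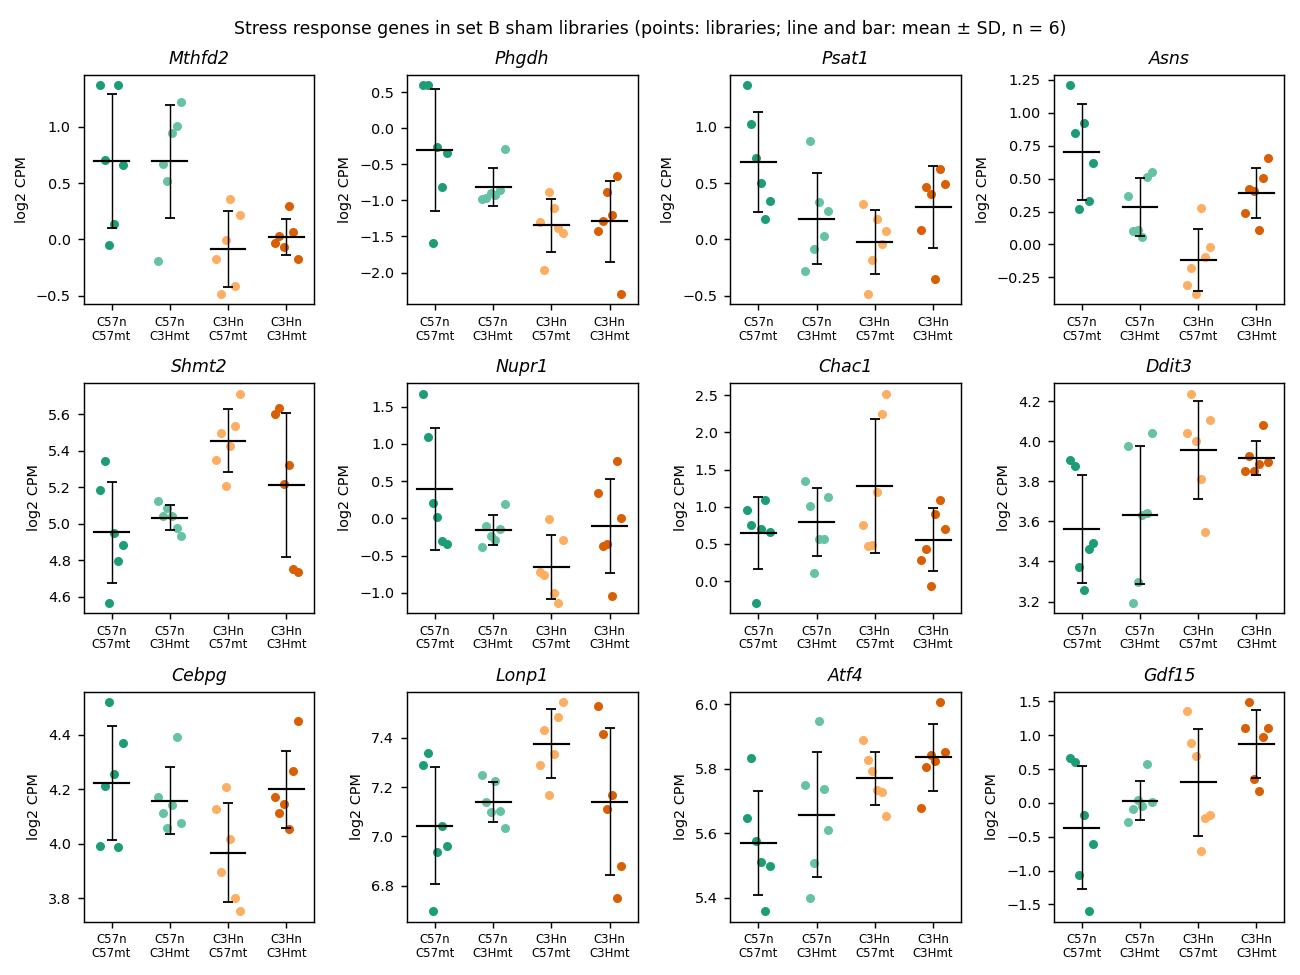
Log2 CPM of 12 members in the 24 set B libraries, by genotype on the x axis (nuclear background above, mitochondrial below); points are libraries, and the line and bar are the mean and SD of 6. Asns, Psat1, Phgdh and Nupr1 have their highest mean in C57n:C57mt, while Mthfd2 is high in both C57n groups.

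Among the transcription factors, Nupr1, a small stress-induced chromatin protein, had -0.34, 0.12 and 1.68 in C57n:C57mt and -1.13, -0.74 and 0 in C3Hn:C57mt, a fold change of -1.34 (SE 0.354, adjusted p = 0.00484). Libraries 1 and 2 of C57n:C57mt were far above the others, at 1.68 and 1.10. Cebpg, a dimer partner of ATF4, had 3.99, 4.23 and 4.52 against 3.75, 3.96 and 4.21, a fold change of -0.26 (SE 0.0985, adjusted p = 0.044). Ddit3, which encodes the stress factor CHOP, had 3.26, 3.48 and 3.91 in C57n:C57mt and 3.55, 4.02 and 4.24 in C3Hn:C57mt, a fold change of 0.40 (SE 0.139, adjusted p = 0.0317). Both pairs of groups overlapped. Atf4 had a fold change of 0.20 (SE 0.0855, adjusted p = 0.0831), Atf5, a relative of ATF4 with a role in the mitochondrial response, one of 0.21 (SE 0.112, adjusted p = 0.167), and Cebpb was not called. Chac1, which degrades glutathione, had -0.29, 0.73 and 1.10 in C57n:C57mt and 0.47, 0.97 and 2.52 in C3Hn:C57mt, a fold change of 0.86 (SE 0.331, adjusted p = 0.048). Libraries 17 and 18 of C3Hn:C57mt, at 2.25 and 2.52, stood above all other set B libraries, and the other 4 of that group lay between 0.47 and 1.2. Lonp1, the main protease of the mitochondrial matrix, had 6.70, 7.00 and 7.34 in C57n:C57mt and 7.17, 7.38 and 7.54 in C3Hn:C57mt, a fold change of 0.32 (SE 0.115, adjusted p = 0.0347). Its chaperone neighbour in function, Hspd1 (the mitochondrial HSP60), had 8.06, 8.33 and 8.58 and 8.18, 8.53 and 8.60, a fold change of 0.125 with an interval of -0.07 to 0.32 (adjusted p = 0.369).

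Of these 10 calls, 6 held whichever of the 24 libraries was left out (Asns, Mthfd2, Nupr1, Phgdh, Psat1 and Shmt2). Chac1 was lost in 15 of 24 such fits, Cebpg in 10, and Ddit3 and Lonp1 in 7 each. Without library 3, and without library 4, 6 members were called. Markers of other cell types moved with this comparison. Of 8 macrophage markers 7 were lower with the C3H nucleus, their summed level being 75.66 to 207.9 CPM in C57n:C57mt and 39 to 85.53 in C3Hn:C57mt. Of 7 endothelial markers 2 were lower (sums 271.3 to 774.9 and 269.1 to 417.2 CPM), as were 2 of 7 fibroblast markers (208.3 to 430.2 and 163.9 to 295.6 CPM), and 1 of 8 cardiomyocyte markers was higher (55030 to 62350 and 59460 to 70840 CPM). The neutrophil markers Retnlg and Mmp8 were at 0 in most libraries. The part of these cells in the members' differences was not tested. The titles also carry a code of the letter L and a digit that the labels do not explain. All C57n:C57mt libraries had L8 while C3Hn:C57mt had L2 or L3, so this code and the nucleus cannot be told apart by a direct comparison. With the code as a covariate, which links the groups through the exchanged libraries, Asns stood at -0.89 (adjusted p = 0.145), Phgdh at -1.51 (adjusted p = 0.218) and Nupr1 at -1.43 (adjusted p = 0.259). Mthfd2 then stood at -0.565 (adjusted p = 0.533), Cebpg at 0.000165 (adjusted p = 1) and Chac1, with its sign changed, at -0.36 (adjusted p = 0.694). All 10 calls were lost, and 1 other member was called, Atf4 at 0.51 (adjusted p = 0.031), where 8.03% of all genes were called.

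With C3H mitochondria the same nuclear contrast (C3Hn:C3Hmt against C57n:C3Hmt) called 1 of 31 members, where 19.4% of all genes were called, 10.6% higher and 8.78% lower. The call was Mthfd2, which fell by 0.78 (SE 0.26, adjusted p = 0.0354). It had -0.20, 0.81 and 1.22 in C57n:C3Hmt and -0.17, 0 and 0.30 in C3Hn:C3Hmt. Library 10 of C57n:C3Hmt was as low as the C3Hn libraries, and the other 5, from 0.52 upward, lay above all of them. The call was lost in 7 of 24 fits that left out 1 library, those without 7, 8, 9, 19, 20, 21 or 24, and the fold change ranged from -0.918 to -0.65 over the 24 fits. The values of Asns were 0.10 (adjusted p = 0.752), of Psat1 0.09 (adjusted p = 0.839), of Nupr1 0.16 (adjusted p = 0.81) and of Phgdh -0.48 (adjusted p = 0.419). The difference between both nuclear contrasts is the interaction given further on. Of the markers, 3 of 7 for fibroblasts and 1 of 8 for macrophages were higher with the C3H nucleus. Here no L code was shared between both groups. With the code as a covariate the call of Mthfd2 was lost (-0.637, adjusted p = 0.508). Chac1 was called instead, at -2.06 (adjusted p = 0.00175), where 8.89% of all genes were called. Without the code Chac1 stood at -0.265 (adjusted p = 0.666). Outside C3Hn:C3Hmt, code L3 occurred in set B only in libraries 17 and 18 of C3Hn:C57mt. The Chac1 value with the code therefore rests on libraries 17 and 18, which stood above all other set B libraries.

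The other members called on the C57 mitochondria had these levels with C3H mitochondria. Phgdh was at -0.98, -0.91 and -0.28 in C57n:C3Hmt and -2.30, -1.24 and -0.67 in C3Hn:C3Hmt. Psat1 was at -0.28, 0.14 and 0.87 and at -0.35, 0.43 and 0.63, and Nupr1 at -0.38, -0.19 and 0.19 and at -1.04, -0.17 and 0.78. For all 3 the groups overlapped, and the C57n:C3Hmt range of Nupr1 lay inside that of C3Hn:C3Hmt. Shmt2 was at 4.93, 5.04 and 5.12 in C57n:C3Hmt and 4.74, 5.27 and 5.64 in C3Hn:C3Hmt, where libraries 23 and 24 were the lowest and the other 4 lay above all of C57n:C3Hmt. Lonp1 was at 7.04, 7.12 and 7.25 and at 6.75, 7.14 and 7.53, with the same 2 libraries lowest. The transcription factor genes overlapped too, Cebpg at 4.06, 4.13 and 4.39 and at 4.05, 4.16 and 4.45, and Ddit3 at 3.20, 3.64 and 4.04 and at 3.85, 3.89 and 4.08.

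The unexchanged strains (C3Hn:C3Hmt against C57n:C57mt) share their libraries with those contrasts, and 4 of 31 members were called, 2 higher and 2 lower, against 22.6% of all genes, 12% higher and 10.7% lower. Phgdh fell by 1.24 (SE 0.343, adjusted p = 0.00931) and Mthfd2 had a fold change of -0.835 (SE 0.256, adjusted p = 0.0184). Atf4, the central factor of the response, rose by 0.26 (SE 0.0855, adjusted p = 0.027), from 5.36, 5.54 and 5.83 in C57n:C57mt to 5.68, 5.83 and 6.01 in C3Hn:C3Hmt. Library 2 alone of C57n:C57mt, at 5.83, came above the lowest C3Hn:C3Hmt library. Gdf15, a secreted factor of the TGF-beta family that marks mitochondrial disease, rose by 1.17 (SE 0.373, adjusted p = 0.0238). Its levels were -1.60, -0.39 and 0.67 in C57n:C57mt and 0.18, 1.04 and 1.49 in C3Hn:C3Hmt, with -0.28, -0.02 and 0.57 in C57n:C3Hmt and -0.71, 0.26 and 1.35 in C3Hn:C57mt. Libraries 1 and 2 of C57n:C57mt lay within the C3Hn:C3Hmt range and the other 4 below it. The count of members called fell to 1 without library 5 and to 2 without library 6, both C57n:C57mt. Both strains also differ in the L code, L8 against L3, so these cannot be told apart. With the code as a covariate the calls of Phgdh (-1.22, adjusted p = 0.543), Mthfd2 (-0.465, adjusted p = 0.765) and Gdf15 (2.58, adjusted p = 0.104) were lost. Atf4 then stood at 0.655 (adjusted p = 0.0416) and Chac1 was called at -2.21 (adjusted p = 0.0221), where 4.32% of all genes were called. Without the code Chac1 stood at -0.118 (adjusted p = 0.864). Its value with the code again rests on libraries 17 and 18 of C3Hn:C57mt, the only other set B libraries with L3.

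Fgf21, the other secreted stress factor of the list, gave too few counts for the filter. It had 0 counts in all 6 C57n:C3Hmt libraries, 0 or 1 in C57n:C57mt, 0 to 4 in C3Hn:C57mt and 1 to 6 in C3Hn:C3Hmt. In all, 30 counts fell in the 12 libraries with a C3H nucleus, 11 of which had a count, and 2 in the 12 with a C57 nucleus. In set A, libraries with a C3H title held 18 counts and those with a C57 title 1. Among the former, the C3H_wt ACF libraries had 4, 1 and 7, and the C3H_wt sham libraries 0. The C3H_MNX libraries held 3 counts in all after ACF and 3 after sham surgery. With no filter on low counts edgeR gave an adjusted p of 0.00431 for the nuclear contrast with C3H mitochondria, 0.0508 with C57 mitochondria and 0.0275 between the unexchanged strains, and DESeq2 gave 0.0101, 0.0872 and 0.0457. No fold change is given because 1 of the groups was at 0 throughout and the others were near it.

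Exchange of the mitochondria on a fixed nucleus called no member. On the C57 nucleus (C57n:C3Hmt against C57n:C57mt) edgeR called 0 of 31, with 5 at an unadjusted p under 0.05, while 0% of all genes were called and 1509 of 13395 had such an unadjusted p. DESeq2 also called 0 members, while it called more of all genes than edgeR did, as counted in the last paragraph. The 5 were Asns (-0.47, SE 0.178, adjusted p = 0.334), Pck2 (-0.41), Psat1 (-0.54), Nupr1 (-0.80) and Phgdh (-0.76), all with lower values with C3H mitochondria. Of these, Asns had 0.27, 0.73 and 1.21 with C57 mitochondria and 0.06, 0.24 and 0.55 with C3H mitochondria, and the groups overlapped. All 8 macrophage markers had a negative difference in this comparison too, 7 with an unadjusted p under 0.05 and 0 called, and their summed level was 51.47 to 84.56 CPM in C57n:C3Hmt. All 7 endothelial and 6 of 7 fibroblast markers also had a negative difference, with 2 of each list at such a p and 0 called. Their part in the result was not tested. The 95% intervals of 26 of 31 members lay within 1 of zero on the log2 scale, and of 17 within 0.5. For Hspd1 the interval was -0.20 to 0.20 and for Atf5 the levels were 4.17, 4.30 and 4.84 against 4.20, 4.33 and 4.61. All C57n:C57mt libraries had code L8, while C57n:C3Hmt had L8 in libraries 7 and 8 and L2 in the others. With the code as a covariate no member was called. Asns then stood at -0.451, Pck2 at -0.166, Psat1 at -0.603, Nupr1 at -0.879 and Phgdh at -0.871.

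On the C3H nucleus (C3Hn:C3Hmt against C3Hn:C57mt) edgeR again called 0 of 31 members, with 5 at an unadjusted p under 0.05, against 0.00747% of all genes called and 1257 with such a p. DESeq2 called 0 members, and more of all genes than edgeR did, as counted in the last paragraph. The 5 were Chac1 (-0.98, SE 0.334, adjusted p = 0.472), Asns (0.53, SE 0.182, adjusted p = 0.472), Hspa9 (-0.25), Stc2 (-0.40) and Cebpg (0.23). Chac1 went from 0.47, 0.97 and 2.52 to -0.07, 0.57 and 1.09, with libraries 17 and 18 of C3Hn:C57mt above all others. Those 2 carry code L3 like all C3Hn:C3Hmt libraries, and with the code as a covariate Chac1 stood at -1.85 (SE 0.29, adjusted p = 0.00336), which then rests on these 2 libraries, and 0.224% of all genes were called. Asns went from -0.38, -0.14 and 0.28 to 0.11, 0.42 and 0.65, with an overlap of library 16 alone. All 5 chaperones and proteases had negative values, with a median of -0.20, none called. The intervals of 27 members lay within 1 of zero and of 19 within 0.5. All 8 macrophage markers had positive values here, 6 with an unadjusted p under 0.05 and 0 called, as did all 7 fibroblast markers, 5 with such a p and 0 called. All 7 endothelial markers were positive too, 1 with such a p and 0 called. Their part in the result was not tested.

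**Figure D3:**
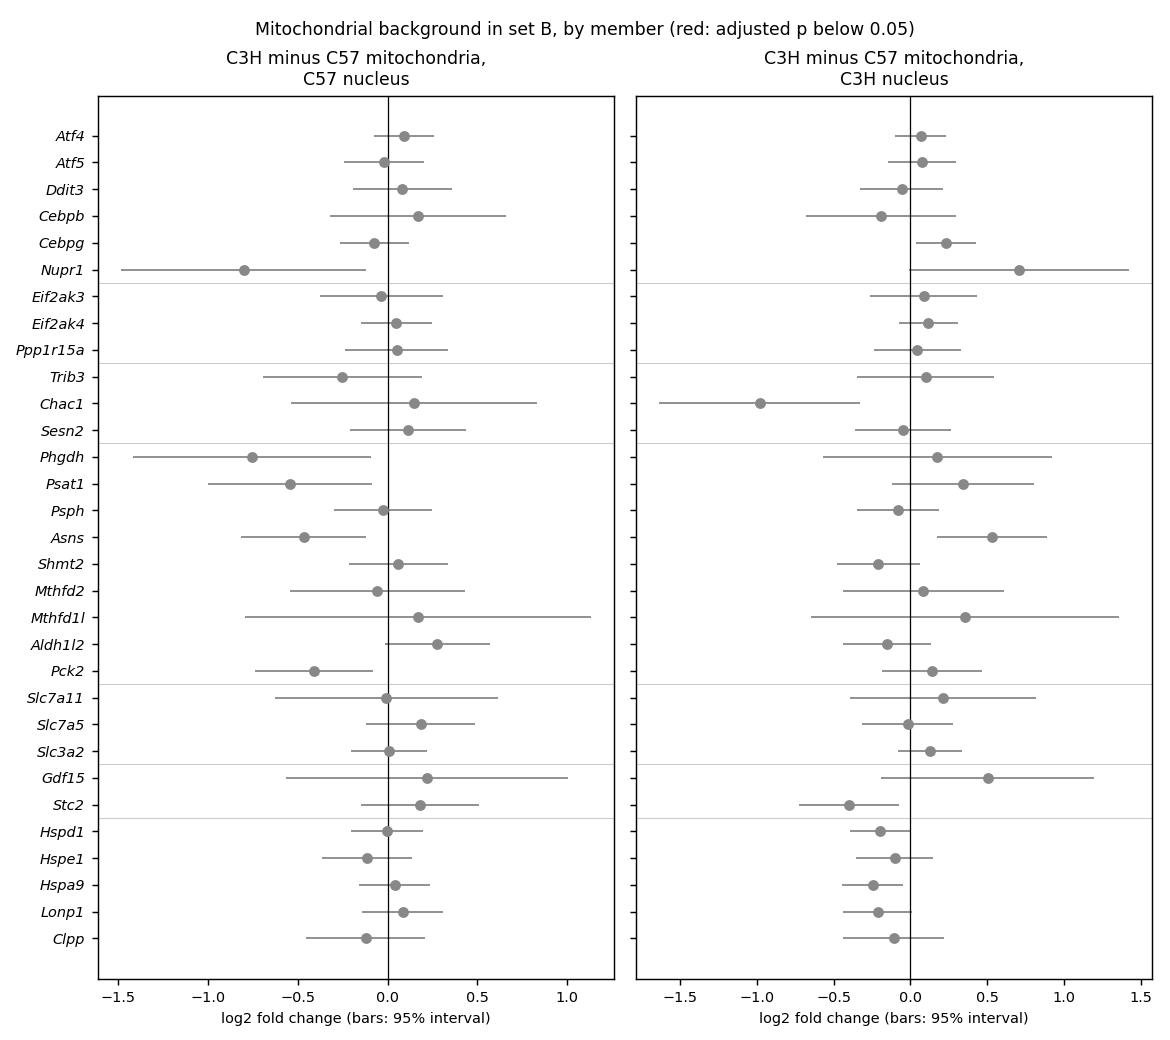
Log2 fold change (C3H minus C57 mitochondria) of the 31 tested members in set B, ordered by role, on the C57 nucleus (left) and the C3H nucleus (right); bars are 95% intervals. No member has an adjusted p below 0.05 on either nucleus, and Asns lies below zero on the left and above it on the right.

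Whether the mitochondrial difference depends on the nucleus was tested as an interaction in set B. No member was called, 7 of 31 had an unadjusted p under 0.05, and 0% of all genes were called, with 2188 at such a p. DESeq2 called 0 members, while it called many more of all genes than edgeR did, as counted in the last paragraph. Asns had the smallest p of the members, with an interaction of 1.00 (SE 0.255, adjusted p = 0.0841), and among the fits that left out 1 library it was called only without library 5 of C57n:C57mt. Nupr1 stood at 1.51 (SE 0.505, adjusted p = 0.139), Psat1 at 0.88 (SE 0.333, adjusted p = 0.186) and Chac1 at -1.13 (SE 0.483, adjusted p = 0.243). The L code differed among these groups, and with it as a covariate no member was called. Asns then stood at 0.945 (adjusted p = 0.347), Nupr1 at 1.617 (adjusted p = 0.398), Psat1 at 0.932 (adjusted p = 0.439) and Chac1 at -1.698 (adjusted p = 0.272). In level, the 2 genotypes with nucleus and mitochondria of 1 strain had the higher mean of Asns on each nucleus, 0.70 against 0.28 on the C57 nucleus and 0.39 against -0.12 on the C3H nucleus. Without the covariate, all 8 macrophage and all 7 endothelial markers also had a positive interaction with an unadjusted p under 0.05. All 7 fibroblast markers were positive too, 5 with such a p. All 8 cardiomyocyte markers were negative, 0 with such a p. Of these markers 0 were called.

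Set A repeats the strain comparison in other libraries (C3H_wt sham against C57_wt sham, 3 each). It called 1 of 31 members against 3.76% of 13440 genes. The call was Atf5, at 3.05, 3.57 and 3.25 in C57_wt sham and 3.84, 3.96 and 3.87 in C3H_wt sham, a rise of 0.59 (SE 0.146, adjusted p = 0.0229). Every C3H_wt library lay above every C57_wt library. The same held over all titles: the 12 libraries with a C3H title, sham and ACF, lay at 3.80 to 4.07 and the 12 with a C57 title at 3.05 to 3.76. How many of all genes separate these libraries in the same way was not counted, here or for the members below. In set B Atf5 had 4.17, 4.30 and 4.84 in C57n:C57mt, 4.20, 4.33 and 4.61 in C57n:C3Hmt, 4.56, 4.63 and 4.65 in C3Hn:C57mt and 4.47, 4.60 and 5.08 in C3Hn:C3Hmt. There the groups overlapped, and its values were 0.30 (adjusted p = 0.0637) and 0.28 (adjusted p = 0.0742) in the contrasts with C3H mitochondria and between strains. The Atf5 call of set A was lost without 482, 483 or 485 of C3H_wt sham, or without 464 or 491 of C57_wt sham. The members called between the set B strains were not called in set A. Atf4 had 0.18 (adjusted p = 0.923), Phgdh -0.86 (adjusted p = 0.882) and Gdf15 0.64 (adjusted p = 0.89), with the signs they had in set B.

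Mthfd2 had a value of -1.90 between the set A strains (SE 0.612, adjusted p = 0.119). Its levels were -0.23, 0.69 and -0.06 in C57_wt sham and -2.01, -1.23 and -1.06 in C3H_wt sham, on 3 to 29 counts per library. These groups did not overlap. Without library 489, which is in neither group but enters the shared estimate of the spread, 3 members were called where 6.49% of 13544 genes were: Mthfd2 at -1.87 (SE 0.391, adjusted p = 0.00351), Atf5 at 0.62 (SE 0.13, adjusted p = 0.00372) and Eif2ak4 at 0.65 (SE 0.169, adjusted p = 0.0203). Eif2ak4 encodes GCN2, the eIF2alpha kinase that senses uncharged transfer RNA. Its levels were 1.95, 1.94 and 2.49 in C57_wt sham and 2.91, 2.55 and 2.78 in C3H_wt sham. Over all titles Mthfd2 was at -2.01 to -0.09 in the 12 libraries with a C3H title and at -0.23 to 2.54 in the 12 with a C57 title, so that the ranges met at their edges.

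**Figure D4:**
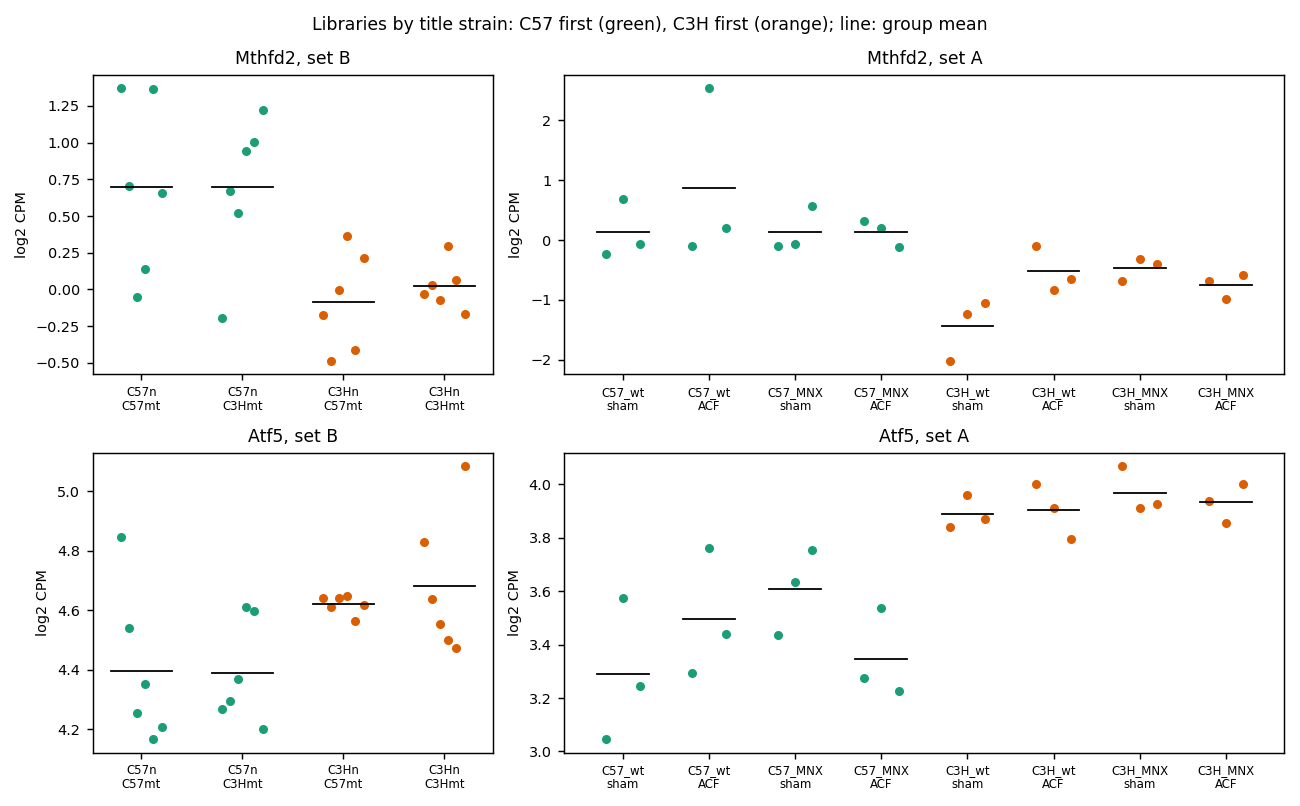
Log2 CPM of Mthfd2 (top) and Atf5 (bottom) in each library of set B (left) and set A (right), by group; green marks a C57 and orange a C3H nucleus or title, and the line is the group mean. In set A the 12 C3H-titled libraries have Atf5 at 3.80 to 4.07 and the C57-titled ones at 3.05 to 3.76.

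Levels of the other called members in set A are given over the 12 libraries of each title strain, sham and ACF together, as a description. Phgdh had -3.20, -2.13 and -0.88 (lowest, median, highest) under C3H titles and -1.70, -0.82 and 1.25 under C57 titles. Shmt2 had 4.16, 4.52 and 4.76 and 3.53, 4.24 and 4.53. In both the ranges overlapped, with the median of Phgdh higher under C57 titles and that of Shmt2 higher under C3H titles. Psat1 had -0.72, -0.25 and 0.83 under C3H and -0.23, 0.21 and 2.08 under C57 titles, and Nupr1 -1.48, -0.54 and 0.88 and -1.39, 0.02 and 3.28. Cebpg had 3.58, 3.84 and 4.26 and 3.44, 3.76 and 4.68, and Lonp1 6.03, 6.45 and 6.71 and 4.55, 6.43 and 6.65. Chac1 had -0.60, 1.22 and 1.71 and -0.67, 0.83 and 1.67, and Gdf15 -2.63, -1.25 and -0.31 and -2.64, -1.49 and -0.61. The ranges of these 6 overlapped widely, and library 489 is the highest C57 value of Phgdh, Psat1 and Nupr1 and the lowest of Shmt2 and Lonp1.

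Between sham libraries of the same title strain, exchanged against unexchanged, no member was called. Under the title C57 edgeR called 0 of 31 members and 0% of all genes. There 2 members and 296 of 13440 genes had an unadjusted p under 0.05. Those 2 members were Aldh1l2, a mitochondrial folate enzyme, at -0.56 (adjusted p = 0.992) and Atf5 at 0.31 (adjusted p = 0.992). Under the title C3H edgeR called 0 members and 0.0149% of all genes, with 0 members and 197 genes at such a p. DESeq2 called 0 members in both.

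For ACF, edgeR called no member with all libraries. Nppb, the natriuretic peptide gene that rises when heart muscle is stretched, served to check the surgery labels: 10 of 12 ACF libraries lay above the highest sham library of their title and library 489 below the lowest, and its mean response over the titles was 1.23 (SE 0.205, adjusted p = 0.0149). In the mean over the 4 titles edgeR called 0 of 31 members, with 7 at an unadjusted p under 0.05, against 0.275% of all genes called (37) and 1524 with such a p. DESeq2 called 2, Atf4 and Slc3a2, and 1.71% of all genes. Without library 489 edgeR called 0 members and 0.923% of 13544 genes. Without libraries 489 and 6756 it called Atf4, where more of all genes were called too, as counted in the last paragraph. With all libraries, the median mean response was 2.68 over 4 erythrocyte, 1.473 over 5 neutrophil and 0.388 over 8 macrophage markers, of which 0 were called. Without library 489 these medians were 0.022, 0.338 and -0.012. The part of these cells in the members' values was not tested. The median was 0.073 over the members and 0.001 over all genes. Within a title, edgeR called 0 members in each, and 0% of all genes in C57_wt, C3H_wt and C57_MNX and 0.00744% in C3H_MNX. In that order, 12, 5, 0 and 0 members had an unadjusted p under 0.05, or 6, 7, 0 and 2 without library 489. Of all 13440 genes, 2030, 951, 274 and 230 had such a p with all libraries. DESeq2 called 0 members within each title, while in C57_wt and C3H_wt it called many more of all genes than edgeR did, as counted in the last paragraph. The joint test that the response differs among titles called 0 members and 0% of all genes. In it 2 members and 407 of 13440 genes had an unadjusted p under 0.05. DESeq2 called 0 members.

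Atf4 had the smallest p of the members in the mean response, 0.36 (SE 0.0913, adjusted p = 0.0988), or 0.30 (SE 0.0712, adjusted p = 0.0506) without library 489. In C57_wt it was at 5.08, 4.70 and 4.81 in sham and 5.14, 5.93 (library 489) and 5.33 in ACF libraries. In C3H_wt it was at 4.89, 5.16 and 5.09 in sham and 5.56, 5.39 and 5.93 in ACF. In C57_MNX it was at 4.84, 5.07 and 5.04 in sham and 4.84, 5.22 and 5.06 in ACF, and in C3H_MNX at 5.15, 5.11 and 5.25 in sham and 5.47, 5.28 and 5.19 in ACF. All ACF libraries lay above all sham libraries in both wild-type titles, and the groups overlapped in both exchanged titles. Over the titles, 9 of 12 ACF libraries were above the highest sham library of their title. The difference in the response among titles gave Atf4 no call in the joint test.

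Both chains of an amino acid exchanger of the cell surface had positive values as well. Slc3a2, the heavy chain, had a mean response of 0.40 (SE 0.111, adjusted p = 0.143), and 9 of 12 ACF libraries were above the highest sham library. Slc7a5, the light chain that carries leucine, had a mean response of 0.92 (adjusted p = 0.26), which became 0.34 without library 489. In C57_wt it was at 1.05, 1.67 and 1.27 in sham and 1.62, 5.43 and 1.89 in ACF, where 5.43 is library 489. Ppp1r15a, the phosphatase subunit GADD34 that reverses eIF2alpha phosphorylation, had 0.40 (SE 0.124, adjusted p = 0.188) and Psat1 0.77 (SE 0.236, adjusted p = 0.187), with 9 and 8 of 12 ACF libraries above the highest sham. Of the 13 members with a negative mean response, those with an unadjusted p under 0.05 were Aldh1l2, -0.40 (SE 0.126, adjusted p = 0.198), and Chac1, -0.65 (SE 0.238, adjusted p = 0.281), each with 7 of 12 ACF libraries below the lowest sham library and 0 above the highest.

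**Figure D5:**
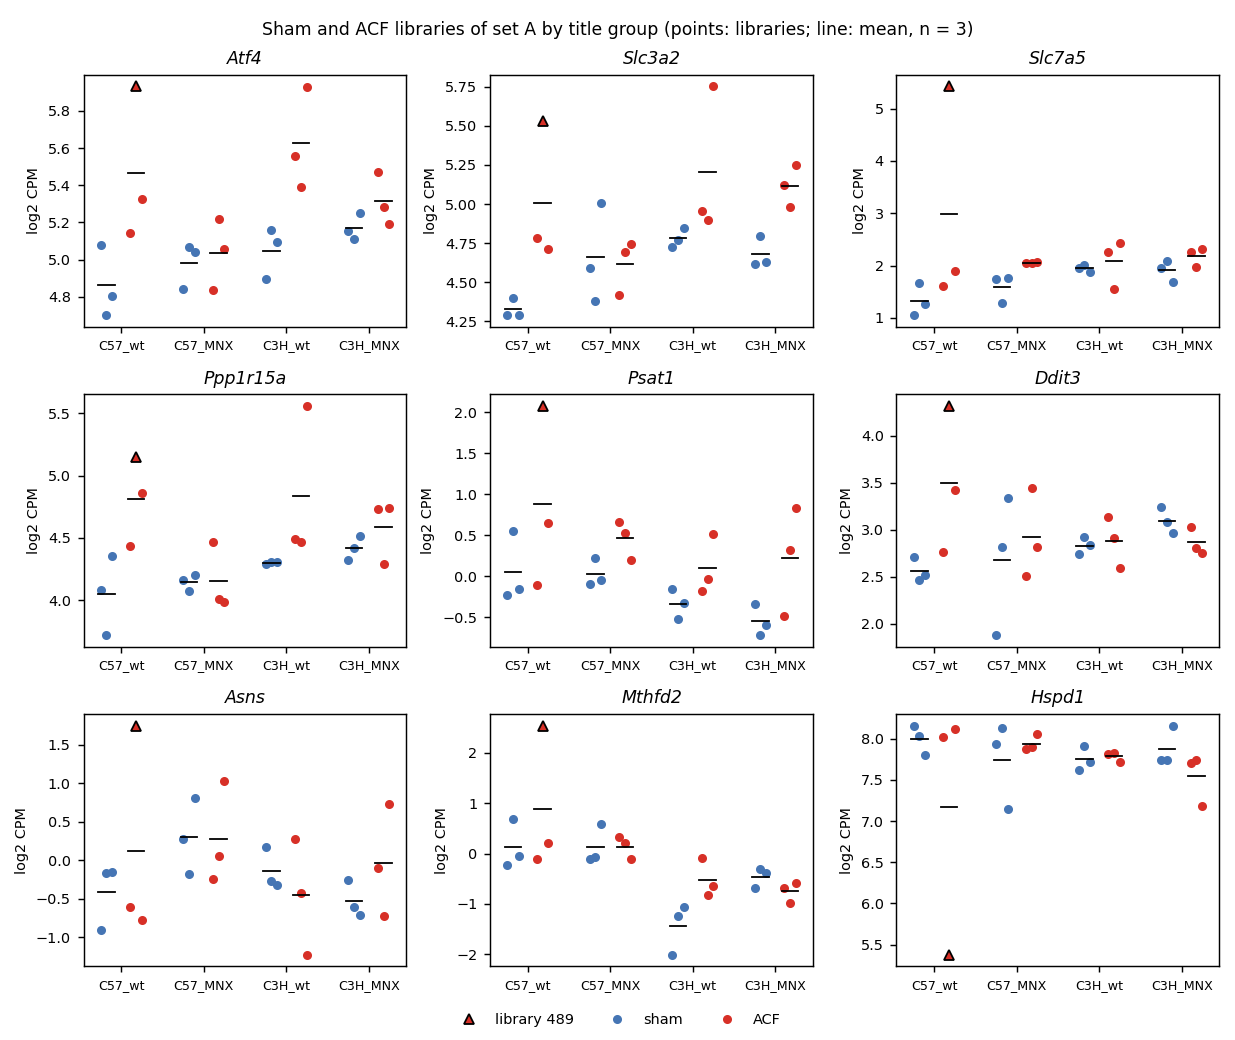
Log2 CPM of 9 members in sham (blue) and ACF (red) libraries of set A, by title group on the x axis; points are libraries, lines are means of 3 and the triangle is library 489. Library 489 is the highest point for Slc7a5, Psat1, Ddit3, Asns and Mthfd2 and the lowest for Hspd1, and Atf4 of ACF lies above sham in C57_wt and C3H_wt.

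Within C57_wt the values depended on library 489. Slc7a5 went from 2.75 (SE 0.659, adjusted p = 0.134) to 0.44 without it, Ddit3 from 1.08 to 0.59, and Atf4 from 0.64 to 0.38. In 14 of 31 members the sign changed without it, among them Nupr1 (2.00 to -0.29), Mthfd2 (1.26 to -0.14), Asns (1.08 to -0.36), Pck2 (0.90 to -0.64) and Hspd1 (-0.41 to 0.08). That library had Hspd1 at 5.37, against 7.15 to 8.16 in the others, Lonp1 at 4.55 (5.91 to 6.71) and Clpp, the other matrix protease of the list, at 2.08 (3.29 to 4.39), while Nupr1 was at 3.28 (-1.48 to 0.88), Mthfd2 at 2.54 (-2.01 to 0.69), Asns at 1.75 (-1.23 to 1.02) and Ddit3 at 4.32 (1.88 to 3.44). Its macrophage marker sum was 322.4 CPM (at most 147 in the others) and its neutrophil marker sum 71.71 (at most 41.27). The part of these cells in its member levels was not tested. Without it, 0 of 31 members were called in each title, where 0.00738% (C57_wt), 0.509% (C3H_wt), 0% (C57_MNX) and 0.00738% (C3H_MNX) of 13544 genes were. In C3H_wt, Aldh1l2 then had -0.94 (SE 0.216, adjusted p = 0.05) and Atf4 0.58 (SE 0.138, adjusted p = 0.0566). With library 6756 left out too, both were called in C3H_wt, where more of all genes were called as well, as counted in the last paragraph.

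For the always named members with no call, ACF values were as follows. Hspd1 had a mean response of -0.14, with an interval of -0.54 to 0.26. Asns in C3H_wt was at 0.17, -0.26 and -0.32 in sham and 0.28, -0.42 and -1.23 in ACF, and in C57_MNX at 0.27, -0.17 and 0.81 in sham and -0.24, 0.05 and 1.02 in ACF. Both pairs overlapped. Gdf15 had 1 to 15 counts in each set A library. Atf5 in C57_MNX was at 3.44, 3.63 and 3.76 in sham and 3.27, 3.54 and 3.22 in ACF. Its ACF value was -0.26 in that title, 0.21 in C57_wt, 0.01 in C3H_wt and -0.04 in C3H_MNX. The intervals of the mean response lay within 1 of zero for 23 of 31 members and within 0.5 for 10.

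Genes of the same pathways that are not members were followed as 4 lists. In the nuclear contrast with C57 mitochondria, 1 of 11 other genes of the eIF2 arm was called (Eif2b1, 0.255), and 6 of 17 other ATF4 targets (2 higher, 4 lower). Calls were also made for 4 of 18 cytosolic aminoacyl-tRNA synthetases (3 higher, 1 lower) and 4 of 14 other mitochondrial chaperones, proteases and stress sensors (all higher), beside the 31.9% of all genes. In the nuclear and strain contrasts the L code and the nucleus cannot be told apart, and the lists were taken from the fit without the code. The largest among ATF4 targets were the amino acid transporters Slc1a5 (-0.80) and Slc6a9 (-0.73) and the cytosolic serine enzyme Shmt1 (-0.60). The largest among the mitochondrial genes were the inner membrane protease Afg3l2 (0.75), the CLPP partner Clpx (0.57) and the chaperone Trap1 (0.395). The largest among the synthetases was Wars (-0.63), for tryptophan. With C3H mitochondria the same lists had 1 of 11 (Eif2ak1, -0.34), 3 of 17 (Shmt1 -1.03, Aldh18a1 0.59, Gpt2 -0.505), 1 of 18 (Wars -0.71) and 2 of 14 called (Afg3l2 0.565, Clpx 0.34), beside 19.4%. Between the unexchanged strains 1 of 11, 4 of 17, 1 of 18 and 3 of 14 were called, beside 22.6%. In both mitochondrial contrasts and in the mean ACF response none of these was called.

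Of the 31 tested members, edgeR with all libraries and no covariate called 13 in at least 1 comparison and 18 in none. Some of those 18, such as Eif2ak4, Slc3a2 and Aldh1l2, were called under another setting. Those 18 had values from -0.54 (Mthfd1l) to 0.37 (Slc7a5, adjusted p = 0.0703) in the nuclear contrast with C57 mitochondria and from -0.44 (Cebpb) to 0.23 (Hspe1) with C3H mitochondria. Their mitochondrial differences ran from -0.41 (Pck2) to 0.28 (Aldh1l2) on the C57 nucleus and from -0.40 (Stc2) to 0.35 (Mthfd1l) on the C3H nucleus. Hspd1 and Hspe1 are neighbours that share a promoter, and their values in the nuclear contrast with C57 mitochondria were 0.125 and 0.22. The PERK kinase gene Eif2ak3 had -0.41 (SE 0.176, adjusted p = 0.0748) in that contrast.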

How the data were processed

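Libraries were mouse cardiomyocyte messenger RNA. The authors deposited a table of expected counts, 1 row for each gene symbol, with no scaling between libraries (13.9% of values were not whole). RSEM 1.2.0, Bowtie, CASAVA 1.8.2 and the build mm9 appear in the submitters' processing notes, while the labels' protocols describe a provider's own mapper; which made the table is not given in the sources used here. RSEM divides reads among near-identical copies.

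Counts were rounded and tested in R 4.3.3 with edgeR 4.0.16 (TMM, filter by group, quasi-likelihood F test, Benjamini-Hochberg over all genes), one model of group means for each set of 24 libraries: 13395 genes in set B and 13440 in set A. The SE was the fold change divided by the square root of F. An earlier analysis of these data pooled both sets for genotype; that was not done here because of the labels of the exchanged set A libraries. Alternatives included DESeq2 1.42.0, no filter, leaving out libraries and the L code. Scripts were tested on simulated data.

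Groups came from titles and genotype labels. Between libraries of a group, chi-square over its degrees of freedom was at least 3.858, so no library was a repeat of another within sampling noise. Separate animals are not stated, so p-values measure the spread between libraries. The members, gene lists and motif were chosen with earlier results of these data known. Named members are those called in at least 1 comparison (given by group in set B and, where ACF or strain showed no call, by title strain in set A) and Atf4, Atf5, Ddit3, Asns, Fgf21, Gdf15, Mthfd2 and Hspd1; up to 3 genes of another list are named by size among those called. Promoter coordinates are GRCm38.p6 and were not joined to the counts other than by symbol; 29 of 32 members matched.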

Additional observations from a re-analysis of the deposited data

Results flagged for a closer look

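Within groups of 6, the highest or lowest library was far from the other 5 in 5 of 59 groups examined over 15 members, where chance gives about 1 in 20. In C57n:C3Hmt, library 8 had Cebpg at 4.39 (others 4.06 to 4.17) and library 9 had Phgdh at -0.28 (others -0.98 to -0.85). In C57n:C57mt, library 3 had Chac1 at -0.29 (others 0.66 to 1.10). In C3Hn:C57mt, library 15 had Hspd1 at 8.18 (others 8.49 to 8.60). In C3Hn:C3Hmt, library 23 had Ddit3 at 4.08 (others 3.85 to 3.93).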

How the results depend on the processing

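Outside the fits that leave out 1 library, 78 of 97 tests of called members kept their direction and call, 17 lost the call and 2 changed sign, both in the nuclear contrast with C57 mitochondria with the L code as a covariate: Cebpg (0.000165) and Chac1 (-0.36). Counts of members called moved as follows; the cause was not tested. With DESeq2, 2 were called in the nuclear contrast with C3H mitochondria (Fgf21, Mthfd2), 2 in the mean ACF response and 2 between set A strains (Atf5, Eif2ak4). With no filter on low counts, 2 were called in the nuclear contrast with C3H mitochondria. With the L code as a covariate, 1 was called for mitochondria on the C3H nucleus, 1 in the nuclear contrast with C57 mitochondria, 2 between set B strains and 0 between set A strains; in the nuclear contrast with C3H mitochondria the count stayed at 1 while the member called went from Mthfd2 to Chac1. With the set A wild-type sham libraries added, 2 were called in the nuclear contrast with C3H mitochondria and 9 between strains, where 20.1% and 25.2% of all genes were called. Without library 489, 3 were called between set A strains. Without libraries 489 and 6756, 2 were called for ACF in C3H_wt (Aldh1l2, Atf4), 1 in the mean ACF response (Atf4) and 3 between set A strains.

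Leaving out each library in turn gave 6 to 11 members in the nuclear contrast with C57 mitochondria, 0 to 3 with C3H mitochondria, 1 to 6 between set B strains, 0 to 3 between set A strains, 0 to 1 for the interaction, 0 to 7 for ACF in C57_wt (7 without library 465 and 4 without 490, both of which leave library 489 as 1 of 2) and 0 to 3 for the mean ACF response (3 without library 465). The other comparisons stayed at 0. No paired analysis was possible because no library number was shared between groups. Phgdh, Mthfd2, Asns, Psat1, Nupr1, Chac1 and Gdf15 had under 170 counts in every set B library, which limits their precision.

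Counts over all genes moved most with 3 settings. With the L code they went from 4272 to 1075 (nucleus with C57 mitochondria), 2599 to 1191 (with C3H mitochondria), 3033 to 578 (set B strains), 506 to 279 (set A strains) and 1 to 30 (mitochondria on the C3H nucleus). With DESeq2 they went from 0 to 14 and from 1 to 6 (mitochondria on the C57 and C3H nucleus), from 0 to 315 (interaction), from 0 to 139 and 76 (ACF in C57_wt and C3H_wt) and from 37 to 241 (mean ACF response). Without library 489 they went from 37 to 125 (mean ACF response), from 0 to 69 (ACF in C3H_wt) and from 506 to 879 (set A strains), and without 489 and 6756 to 344, 192 and 1075. Other changes over 1.5 times were between counts of 0 to 7.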
